A study of Mus musculus with 9 samples.

Results

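The retinal pigment epithelium (RPE) of aged mice given vutiglabridin was compared with that of young, untreated mice, gene by gene, to see which genes stood at the young level and which stood away from it. Both groups are wild-type mice. The treated group is 3 libraries from mice aged 24 months given vutiglabridin for 6 months (a drug made by modifying glabridin, a flavonoid of liquorice), and the young group is 3 libraries from untreated controls aged 9 months. These are 6 of the 9 libraries of the study. The remaining 3 came from untreated controls aged 24 months, and they are used here to show where an aged, untreated RPE stood. TRIzol was used to extract the RNA and a stranded total RNA kit to build the libraries, as the labels' protocols state. The labels name no strain, sex, dose or sequencing batch, and they do not say whether a library is a single animal, a pool of animals or a repeat of another. The p-values therefore measure only the spread between these samples, which may be technical. The treated and the young group differ in both age and treatment, and the 2 cannot be told apart in this comparison alone.

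The RPE is a pigmented sheet of cells between the photoreceptors and the choroid. It recycles the chromophore of the visual pigments, moves ions and nutrients between blood and retina, takes up shed outer segments and holds melanin. Interferon-gamma, a cytokine made mainly by T cells and natural killer cells, switches on immunity-related GTPases, guanylate-binding proteins and the genes that present antigen. Oncostatin M and interleukin 6 act through receptors that share the chain gp130, and through Stat3, to switch on feedback inhibitors and acute phase genes. Immediate early genes, such as those of the AP-1 factors, are transcribed within minutes of a stimulus.

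Total counts per library lay between 44196290 and 56797891, and 25273 of 40202 genes had enough counts to be tested. RPE genes were abundant in every library. Rpe65, the retinoid isomerase, was at 3004, 2829 and 3113 CPM (counts scaled to a common library size) in the young libraries 1, 2 and 3 and at 2761, 1999 and 2104 in the treated ones. Best1, an RPE chloride channel, was low at 5.2, 5.65 and 6.69 CPM in the young and 10.1, 12.9 and 7.75 CPM in the treated libraries. Markers of choroid, muscle and retina were present in all libraries. Skeletal muscle genes varied, with summed levels of 791, 279 and 857 CPM in young, 709.7, 1603 and 1381 CPM in aged control and 1795, 2449 and 594 CPM in treated libraries. Treated library 2 stood apart, with 0.491% of its counts in haemoglobin genes against 0.00377% to 0.0591% elsewhere. Its summed level of 18 stratified epithelium genes was 679 CPM against 182 to 260 CPM in the other libraries. Young library 1 stood apart in mitochondrial ribosomal RNA, with 0.153% of counts in mt-Rnr2 against 0.427% to 0.545%. Treated library 3 had the highest summed level of 25 rod genes, 1809.6 CPM against 1068 to 1375 CPM. Counts below are therefore also given for the 7 libraries left without treated library 2 and young library 1.

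Against young RPE, treated aged RPE differed in 4222 genes, 16.7% of those tested, of which 2278 were higher (9.01%) and 1944 lower (7.69%). A gene counts as different at an adjusted p under 0.05 (Benjamini-Hochberg) in edgeR's quasi-likelihood test, fitted on all 9 libraries. A gene counts as near young when the 95% interval of its log2 fold change lies wholly within a 1.5-fold change either way. That was so for 9050 genes (35.8%), 402 of which were also different by the test, and 12403 genes were neither and stayed undecided. The median change over all genes was -0.01 on the log2 scale. More than 2-fold higher were 887 of the genes that differed, and more than 2-fold lower were 331. Aged control RPE differed from the same young libraries in 424 genes (1.68%), 373 higher (1.48%) and 51 lower (0.202%), and 48.0% were near young. Treated RPE differed from aged control RPE in 1098 genes (4.34%), 599 higher and 499 lower, and 40.2% lay within 1.5-fold. With 7 libraries the treated and young groups differed in 1794 genes, 1036 higher and 758 lower, and a fit on only the 6 libraries of the 2 groups gave 1041, of which 667 were higher and 374 lower. Without single libraries the count of different genes was 1775 to 6086, the highest being without treated library 3. It fell to 2408, 2588 and 2641 without aged control library 1, 2 or 3, to 2649 without treated library 2, and to 1806 and 1775 without young library 1 or 2.

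Of the 373 genes that were higher in aged control than in young RPE, 252 were also higher in treated aged RPE and 1 was lower. Near young were 47, of which 3 were also different by the test, and 76 were neither. Their median log2 difference from young was 1.03 in aged control RPE and 0.79 in treated RPE. Of the 51 genes that were lower in aged control RPE, 42 were lower in treated RPE too, 1 was higher, 3 were near young and 5 were neither. The medians were -0.83 and -0.89. Both comparisons use the same young libraries, so these counts describe where the genes stood and are no independent repeat. The genes were also chosen for their difference between aged control and young RPE, which tends to enlarge the aged control medians. A smaller median in treated RPE is thus no sign of a return to young. With 7 libraries, 186 of the 373 were called higher and 39 of the 51 lower. The outcomes by gene list are given next; against a background of 9.01% higher, 7.69% lower and 35.8% near young, a list near those shares stands out in nothing. Small counts in the lesser direction of a list also moved by 1 or 2 members with single libraries left out, and not every such move is given. A member that was both called and near young is counted in both. There were 2 such members each in the endothelium, complex I, autophagy and senescence arrest lists. The outer segment, clock, interferon receptor and secreted senescence factor lists held 1 each.

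**Figure D1:**
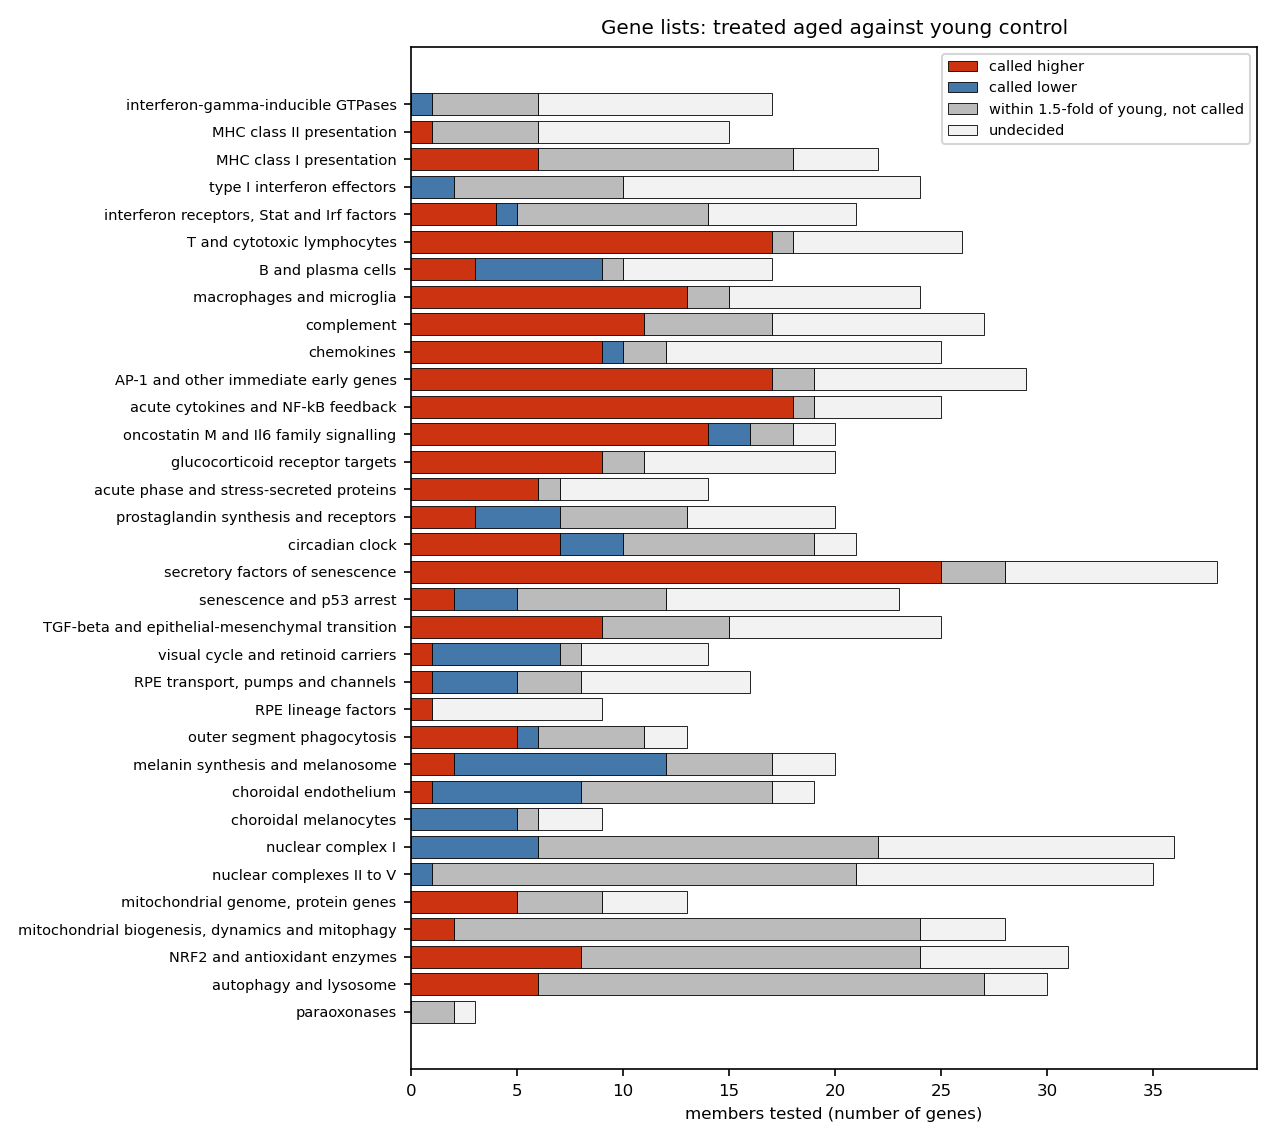
Bars show, for 34 gene lists, how many tested members were higher in treated aged than in young RPE (red), lower (blue), near young without a call (grey) or undecided (white); the x axis is the number of genes. Interferon-inducible GTPases have 0 members higher of 17, T and cytotoxic lymphocyte genes 17 of 26, and melanosome genes 10 lower of 20.

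Interferon-gamma-inducible GTPases, high in aged control RPE, stood around the young level in treated RPE, with intervals narrow enough to call near young for 5 and not for the rest. Of 17 tested GTPases of this kind, 15 were higher in aged control than in young RPE (background 1.48% of genes). In treated RPE 0 were higher than young, 1 was lower and 5 were near young, and 15 lay under aged control RPE by the test (background 1.97% of genes). Their median log2 difference from young was 1.61 in aged control and 0.11 in treated RPE, and the median by treated library was 0.12, 0.16 and -0.29. With 7 libraries, 0 members were called in either direction, and without treated library 3 there was 1 higher. The near-young count was 3 with 7 libraries, 8 without aged control library 3 and 7 with only the 2 groups in the fit. Igtp, which acts on the vacuoles of intracellular parasites, was at 15.7, 12.7 and 11.6 CPM in young, 69.6, 66.9 and 43.2 CPM in aged control and 14.7, 17.9 and 10.8 CPM in treated libraries. The treated and young libraries overlapped, and all aged control libraries lay above both. Treated minus young was 0.11 ± 0.22 (SE) on the log2 scale, with an interval from -0.38 to 0.61. That interval reaches just past the 1.5-fold limit. Irgm2, a regulator of the same family, was at 20.4, 22.5 and 20.5 CPM in young, 83.3, 83.3 and 58.5 CPM in aged control and 23.8, 25.2 and 17.6 CPM in treated libraries. Its difference from young was 0.07 ± 0.16, with an interval from -0.29 to 0.43, within the limit. Tgtp1 and Tgtp2 are near-identical copies whose reads may be split between them. Tgtp1 stood at 23.5, 24.8 and 18.4 CPM in young and 25.4, 27.7 and 23.3 CPM in treated libraries, against 114, 116 and 82.3 CPM in aged controls. Gbp4, a guanylate-binding protein, was at 11, 11 and 12.5 CPM in young, 88.8, 77.4 and 54.4 CPM in aged control and 10.8, 19.7 and 9.03 CPM in treated libraries, with treated library 2 the highest of the treated. Its difference from young, 0.20 ± 0.28, had an interval from -0.43 to 0.83, too wide for either call.

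Gbp7, another guanylate-binding protein, was the member that fell below young. It was at 50.9, 56.8 and 49.1 CPM in young, 97.5, 96.1 and 69.6 CPM in aged control and 40.4, 35 and 34.1 CPM in treated libraries. All treated libraries lay under all young ones, a log2 fold change of -0.52 ± 0.13 (adjusted p = 0.0282). The call was lost without treated library 2 or 3 or young library 1 or 2, with fold changes between -0.59 and -0.44. The promoters of 4 of these genes are shown because their members moved together between the groups. They are RefSeq sequence on GRCm38.p6, from 250 bases before to 50 bases after the start site and read 5′ to 3′ on the gene's strand. Capitals mark matches, on either strand, to TTCNNNGAA, the interferon-gamma-activated site, to GAAA, any 2 bases and GAAA, the interferon-stimulated response element, or to TGANTCA, the AP-1 site. No match overlaps another in the sequences shown. Igtp lies at chr11:58199306-58199605, plus strand. Irgm2 lies at chr11:58214727-58215026, plus strand. Tgtp1 lies at chr11:48992197-48992496, minus strand. Gbp7 lies at chr3:142530086-142530385, plus strand.
Igtp: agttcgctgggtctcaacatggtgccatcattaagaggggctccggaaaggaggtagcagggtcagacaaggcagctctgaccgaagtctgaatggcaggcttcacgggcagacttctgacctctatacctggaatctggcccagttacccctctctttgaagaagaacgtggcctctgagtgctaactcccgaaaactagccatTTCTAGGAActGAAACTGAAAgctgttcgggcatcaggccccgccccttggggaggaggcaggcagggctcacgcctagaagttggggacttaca
Irgm2: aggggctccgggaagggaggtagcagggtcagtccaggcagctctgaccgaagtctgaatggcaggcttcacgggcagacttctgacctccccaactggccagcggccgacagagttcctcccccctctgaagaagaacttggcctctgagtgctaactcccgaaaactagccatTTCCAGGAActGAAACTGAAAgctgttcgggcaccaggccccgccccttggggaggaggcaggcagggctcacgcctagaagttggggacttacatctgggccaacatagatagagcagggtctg
Tgtp1: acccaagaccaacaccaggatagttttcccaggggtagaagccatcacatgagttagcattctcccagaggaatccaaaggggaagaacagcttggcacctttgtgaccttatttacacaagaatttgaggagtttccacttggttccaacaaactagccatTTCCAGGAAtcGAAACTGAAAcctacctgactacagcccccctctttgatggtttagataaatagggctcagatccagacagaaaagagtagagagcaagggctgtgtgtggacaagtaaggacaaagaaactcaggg
Gbp7: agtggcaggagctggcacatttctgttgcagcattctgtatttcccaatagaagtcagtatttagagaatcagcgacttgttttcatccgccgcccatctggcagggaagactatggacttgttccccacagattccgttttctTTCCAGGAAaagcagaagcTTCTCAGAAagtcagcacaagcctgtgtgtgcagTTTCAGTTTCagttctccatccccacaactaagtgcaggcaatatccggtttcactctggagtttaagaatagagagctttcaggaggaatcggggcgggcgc
In Igtp, Irgm2 and Tgtp1 a match to the activated site was followed closely by GAAACTGAAA. Of the 11 tested members with a sequence in the RefSeq table, 6 (54.5%) held the activated site and 10 (90.9%) the response element. Among 18350 tested genes with a sequence the shares were 9.1% and 3.94%, and among all 32851 promoters of the table they were 8.3% and 3.44%. A match is a description of these letters and not a bound site.

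Among 21 receptors, Stat and Irf factors of the interferon pathways, 4 were higher in treated than in young RPE, 1 was lower and 10 were near young. The 4 included Stat3, Socs3 and Jak1, which also serve the interleukin 6 family, and Ifngr2, a chain of the interferon-gamma receptor. Ifngr2 was at 18.9, 27 and 21.4 CPM in young, 31.2, 30.9 and 31.9 CPM in aged control and 34, 32.4 and 30.9 CPM in treated libraries. Every treated library was above every young one (0.53 ± 0.12, adjusted p = 0.0189), and the call was lost without young library 1 or 3. Ifnar1, a chain of the type I interferon receptor, was near young, at 59.7, 60.6 and 59.7 CPM against 57.4, 60.9 and 59.5 CPM in treated libraries. The count of higher members was 1 with 7 libraries, 1, 2 and 1 without young library 1, 2 or 3, and 7 without treated library 3.

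Of 24 tested effectors of the type I interferon response, 0 were higher, 2 were lower and 8 were near young, with a median of 0.10. The shares over all genes were 9.01% higher, 7.69% lower and 35.8% near young. The lower and near-young counts of this list do not stand out from them. Parp14, an interferon-induced ADP-ribosyltransferase, was at 63.8, 66.5 and 55.4 CPM in young, 97.9, 92.4 and 84.7 CPM in aged control and 69.5, 62.8 and 60.6 CPM in treated libraries. It was above young in the aged controls (0.57, adjusted p = 0.0188), and the treated libraries overlapped the young ones and were near young (0.05 ± 0.10). Ifit2, an interferon-induced antiviral protein, was lower than young in treated RPE, at 35.1, 31.2 and 35.5 CPM against 48, 48 and 43.9 CPM. The groups did not overlap (-0.46 ± 0.10, adjusted p = 0.0146), and the aged controls at 45.5, 51.7 and 42 CPM stood among or beside the young libraries. That call was lost without young library 2, and with 7 libraries 0 of the 24 were called.

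Like the GTPases, several genes that present peptides on MHC class II were high in aged control RPE. Of 15 tested, 6 were higher in aged control than in young RPE (background 1.48% of genes). In the treated group 7 fell under aged control RPE (background 1.97%). In treated RPE 1 was higher than young, 0 were lower and 5 were near young, a share close to the 35.8% over all genes. The median was 1.00 in aged control and -0.16 in treated RPE. Ciita, the master activator of class II genes, was at 16.3, 16 and 20.1 CPM in young, 34.7, 31.6 and 38.3 CPM in aged control and 12.2, 14.4 and 15 CPM in treated libraries. All treated libraries lay below all young ones, but the difference of -0.33 ± 0.13 did not pass the test (adjusted p = 0.0966). Ciita overlaps Dexi in the table, and reads in the stretch they share may not be told apart. The member that stayed higher was Ctss, the lysosomal protease cathepsin S, which macrophages also make. It stood at 289, 419 and 223 CPM in young, 781, 765 and 722 CPM in aged control and 759, 756 and 604 CPM in treated libraries, well apart from young (1.19 ± 0.20, adjusted p = 0.00622), though with 7 libraries its adjusted p was 0.069. The lower count of the list was 2 without treated library 2 and 1 with 7 libraries.

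Among MHC class I genes, several heavy chains and their activator were above young. Of 22 tested, 15 were higher in aged control RPE (background 1.48% of genes) and 6 in treated RPE (background 9.01%). In treated RPE 12 were near young, and the medians were 0.77 and 0.14. With 7 libraries 6 were called higher, and without young library 2 there were 4. Nlrc5, the activator of class I genes, was at 16.1, 20.5 and 18.4 CPM in young, 71.2, 58.9 and 61.9 CPM in aged control and 42, 38.7 and 31.5 CPM in treated libraries. The 3 groups did not overlap, and the treated libraries lay between the others. Treated RPE was above young by 1.03 ± 0.13 (adjusted p = 0.00239) and differed from aged control RPE by -0.78 (adjusted p = 0.0196). H2-D1, a classical class I heavy chain, was at 202, 179 and 134 CPM in young, 368, 337 and 361 CPM in aged control and 279, 326 and 244 CPM in treated libraries. It was above young in every treated library (0.72 ± 0.15, adjusted p = 0.0135). H2-Q4, H2-Q6 and H2-Q7 are close copies, so each value may hold reads of another. H2-Q7 was at 2.32, 1.69 and 1.78 CPM in young, 9.38, 7.76 and 9.92 CPM in aged control and 4.23, 5.81 and 3.83 CPM in treated libraries, again between the 2 other groups (1.26 ± 0.20 above young, adjusted p = 0.00536). Canx and Calr, the chaperones that fold class I molecules, were near young, with differences of -0.01 and -0.08 in aged control RPE and, in treated RPE, of -0.09 ± 0.09 and -0.19 ± 0.12.

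**Figure D2:**
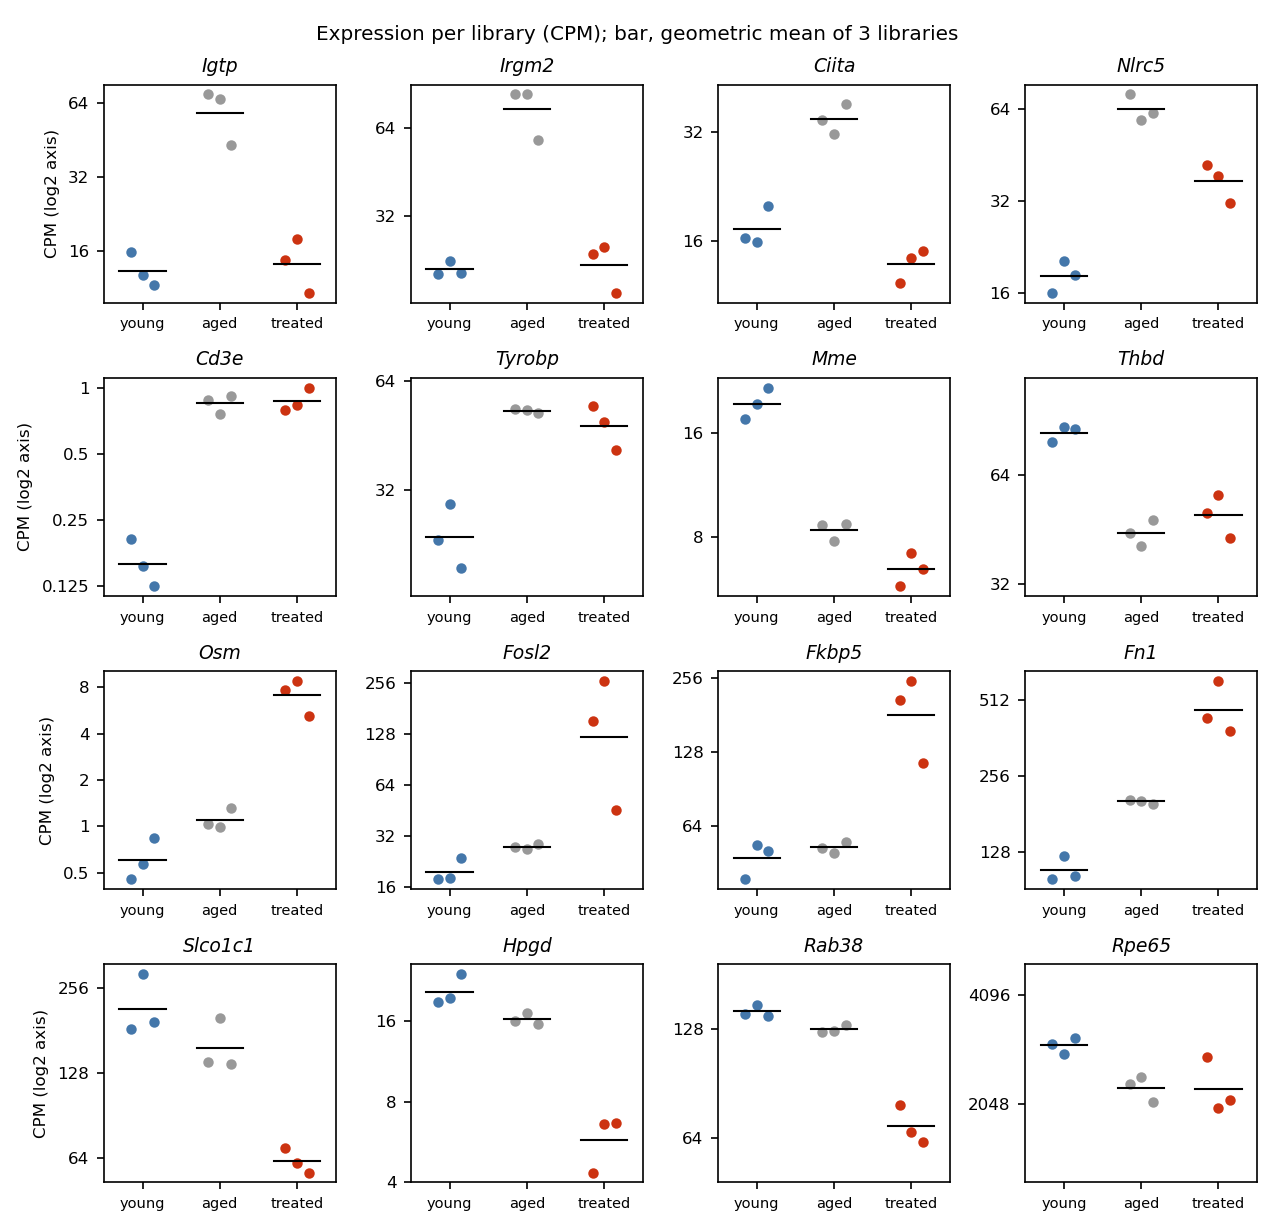
Points are single libraries, 3 per group, of 16 genes in young control, aged control and treated aged RPE; the y axes are CPM on a log2 scale and bars are geometric means. Igtp and Irgm2 lie around the young level in treated RPE, Cd3e and Tyrobp stay with the aged controls, and Osm, Fkbp5 and Fn1 rise above both.

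T cell genes stayed away from young. Of 26 tested genes of T and cytotoxic lymphocytes, 17 were higher in treated than in young RPE, 0 were lower and 1 was near young. The median log2 difference was 1.36, against 1.31 in aged control RPE. Cd3e, a chain of the T cell receptor complex, was at 0.204, 0.154 and 0.125 CPM in young, 0.882, 0.76 and 0.918 CPM in aged control and 0.791, 0.836 and 0.999 CPM in treated libraries. The treated libraries lay with the aged controls and apart from young (2.44 ± 0.31, adjusted p = 0.00228). Il7r, the interleukin 7 receptor chain, was at 7.33, 13.3 and 10.5 CPM in young, 27.7, 26.2 and 27.2 CPM in aged control and 58.7, 37.4 and 37.3 CPM in treated libraries, apart from young (adjusted p = 0.00154). Cd6, a costimulatory receptor, was at 0.204, 0.308 and 0.571 CPM in young and 2.35, 3.02 and 2.28 CPM in treated libraries. Pdcd1, the inhibitory receptor PD-1, was among the largest rises and was at 0, 0.154 and 0.196 CPM in young, 0.406, 0.721 and 0.519 CPM in aged control and 3.65, 5.17 and 1.17 CPM in treated libraries. The fitted fold of Pdcd1, 4.75 ± 0.76 (adjusted p = 0.00574), rests on few young reads and depends on the prior count, and it was 5.37 without young library 3. The list count was 11 with 7 libraries, also 11 without young library 1, and 10 with only the 2 groups in the fit. In these bulk samples, more cells of a type and more RNA per cell cannot be told apart. Il7r and Pdcd1 stood above Cd3e in every treated library, and whether other cells made part of their RNA was not tested. Of the 26 members, 12 averaged at least 1 CPM.

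Of 17 genes of B and plasma cells, 6 were lower in treated than in young RPE, 3 were higher and 1 was near young, with a median of -0.90 against 0.49 in aged control RPE. Cr2, the complement receptor of B cells, was at 14.9, 14.6 and 14.2 CPM in young, 12, 12.3 and 11.4 CPM in aged control and 7.09, 6.41 and 9.9 CPM in treated libraries. All treated libraries lay below all others (-0.90 ± 0.15, adjusted p = 0.00614). Ighd, the heavy chain of IgD on naive B cells, was at 0.454, 0.594 and 0.767 CPM in young, 1.01, 1.21 and 0.858 CPM in aged control and 0.116, 0.0214 and 0.222 CPM in treated libraries (-2.28 ± 0.53, adjusted p = 0.0196). Pax5, the factor of B cell identity, was at 1.27, 2.77 and 3.35 CPM in young, 3.97, 3.86 and 2.21 CPM in aged control and 0.512, 0.858 and 1.11 CPM in treated libraries. Its treated libraries were all under the young ones (-1.57 ± 0.40, adjusted p = 0.0284). The 3 that were higher were Igha, the IgA heavy chain, Igkc, the kappa light chain, and Sdc1, a plasma cell proteoglycan. Igha was at 0.0227, 0 and 0.838 CPM in young, 4.64, 5.17 and 4.37 CPM in aged control and 8.02, 1.95 and 9.21 CPM in treated libraries, and it overlaps the annotated Igh locus as do Ighd and Ighm. The lower count was 4 with 7 libraries, 3 without aged control library 2, 2 and 3 without treated library 1 or 2, and 1 and 2 without young library 2 or 3. The higher count was 1 without aged control library 2 or 3, and 0, 0 and 1 without young library 1, 2 or 3. With only the 2 groups in the fit, 1 was lower and 0 were higher. The fold of Ighd was -3.11 without treated library 3. Calls for Ighd were lost without young library 2 or 3, and for Pax5 without treated library 1 or 2 or young library 2 or 3.

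Of 24 macrophage and microglia genes tested, 13 were higher in treated than in young RPE, 0 were lower and 2 were near young, with a median of 0.78 against 0.77 in aged control RPE. Against the aged controls 1 was higher, 1 was lower and 8 lay within 1.5-fold. Tyrobp, the adaptor DAP12 of myeloid receptors, was at 23.3, 29.4 and 19.5 CPM in young, 53.6, 53.2 and 52.3 CPM in aged control and 54.7, 49.2 and 41.2 CPM in treated libraries. Cd68, a lysosomal protein of macrophages, was at 26.6, 34.5 and 23.5 CPM in young, 55.7, 49.5 and 49.1 CPM in aged control and 53.8, 59.2 and 50.7 CPM in treated libraries. For both genes the treated libraries overlapped the aged controls and lay above every young library (adjusted p = 0.00375 and 0.00335). Laptm5, a lysosomal protein of blood cells, was also higher, at 21.7, 33.2 and 25.4 CPM in young, 58.7, 50.04 and 54.6 CPM in aged control and 80.3, 75.1 and 67.5 CPM in treated libraries (1.47 ± 0.15, adjusted p = 0.00085). Csf1r, the receptor for colony-stimulating factor 1, was near young, at 162, 146 and 144 CPM against 147, 144 and 136 CPM in treated libraries. P2ry12, a receptor of resting microglia, was near young too (-0.14 ± 0.16). With 7 libraries 9 of the 24 were higher.

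Of 27 complement genes tested, 11 were higher than young in treated RPE, 0 were lower and 6 were near young, with a median of 0.52 against 0.38 in aged control RPE. C3, the central component, was at 14.7, 19.7 and 12.8 CPM in young, 46.1, 46.7 and 41.8 CPM in aged control and 50.2, 96 and 36 CPM in treated libraries. Treated library 2 was the highest, and all treated libraries were above all young ones (1.95 ± 0.33, adjusted p = 0.00843). C4b, a component of the classical pathway, was at 142, 112 and 96.9 CPM in young, 211, 204 and 198 CPM in aged control and 195, 193 and 181 CPM in treated libraries (0.70 ± 0.12, adjusted p = 0.00739). Masp1, a protease of the lectin pathway, rose above the aged controls as well, at 3.2, 2.09 and 1.75 CPM in young, 4.14, 4.07 and 4.17 CPM in aged control and 7.51, 6.99 and 7.29 CPM in treated libraries (1.63 ± 0.21, adjusted p = 0.00233). Among regulators, Cd46 was near young (-0.08 ± 0.08). Itgax, the integrin chain of a complement receptor, was at 23.9, 31.1 and 21.4 CPM in young, 69.8, 60.8 and 68.6 CPM in aged control and 70.4, 61.5 and 67.5 CPM in treated libraries (adjusted p = 0.000763). The higher count was 6 with 7 libraries, 5 without young library 1 and 7 without young library 3.

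Of 25 chemokines, 9 were higher than young in treated RPE, 1 was lower and 2 were near young. Cxcl16, which draws T cells that carry Cxcr6, was at 18.8, 21.1 and 15.8 CPM in young, 37.2, 35.7 and 35.5 CPM in aged control and 45.3, 55.2 and 40.3 CPM in treated libraries. Nlrc5, Cxcl16 and Pax5 overlap other annotated genes, and reads in the shared stretches may not be told apart. No Cxcl16 group overlapped another, and the rise over young was 1.34 ± 0.14 (adjusted p = 0.000894). Ccl2, which draws monocytes, was at 1.36, 0.902 and 0.517 CPM in young, 1.6, 2.67 and 1.34 CPM in aged control and 3.98, 6.69 and 1.76 CPM in treated libraries. It passed the test (2.17 ± 0.51, adjusted p = 0.023) with treated library 3 close to the aged controls, but not with 7 libraries (adjusted p = 0.0566), nor without treated library 2 or young library 2 or 3. Cxcl12, made by stromal cells, was near young (-0.10 ± 0.12). The higher count was 1 with 7 libraries, 2 without treated library 2, and 3, 1 and 4 without young library 1, 2 or 3. With only the 2 groups in the fit it was 1. The adhesion molecules Icam1 and Vcam1, which leukocytes bind on vessel walls and epithelium, were above young in every treated library. Icam1 was at 52.1, 54.9 and 48.6 CPM in young, 78.5, 70.8 and 68.4 CPM in aged control and 86.7, 115 and 94.3 CPM in treated libraries (0.93 ± 0.11, adjusted p = 0.00197).

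**Figure D3:**
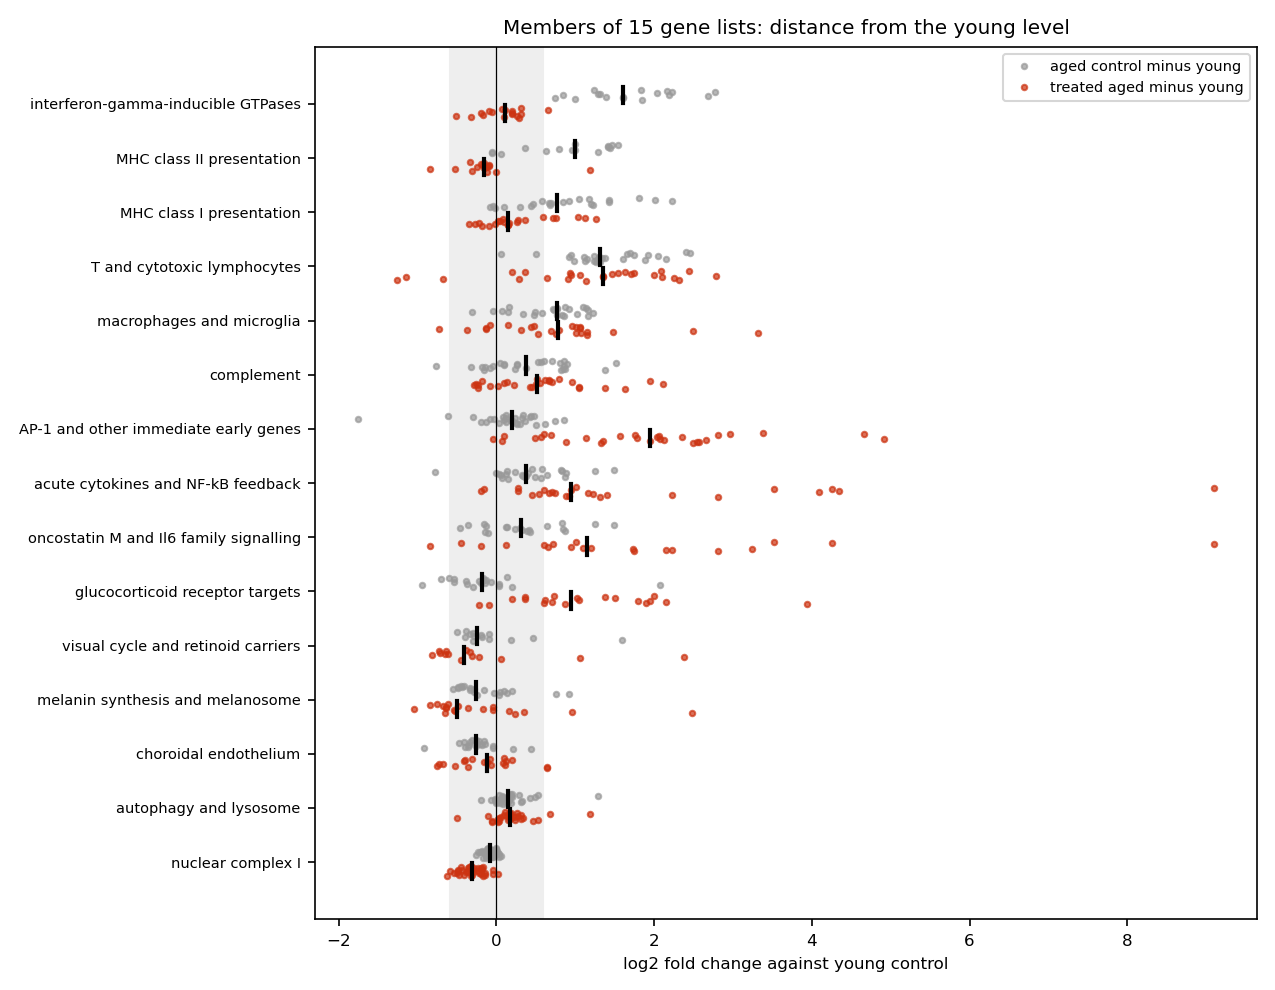
Points are the fitted log2 fold changes of single list members against young control RPE, for aged control (grey) and treated aged RPE (red); black bars are list medians and the shaded band is a 1.5-fold change either way. The GTPase median moves from 1.61 in aged control to 0.11 in treated RPE, and the immediate early median from 0.20 to 1.95.

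Most genes of the oncostatin M and interleukin 6 family were above young in treated RPE. Of 20 tested, 14 were higher than young, 2 were lower and 2 were near young, with a median of 1.15 against 0.31 in aged control RPE. Osm, the ligand oncostatin M, was at 0.454, 0.572 and 0.838 CPM in young, 1.04, 0.994 and 1.32 CPM in aged control and 7.72, 8.79 and 5.22 CPM in treated libraries. Every treated library was several times above every other library (3.52 ± 0.29 against young, adjusted p = 0.000331, and 2.69 against aged control, adjusted p = 0.00393). Lif, another ligand of the family, was at 0.0454, 0.396 and 0.41 CPM in young, 0.653, 0.76 and 0.658 CPM in aged control and 9.72, 5.62 and 1.39 CPM in treated libraries, with an adjusted p of 0.0104 against young and of 0.0652 with 7 libraries. Il6 was at 0, 0.044 and 0.0713 CPM in young, 0.106, 0.0975 and 0.16 CPM in aged control and 19.7, 51.8 and 0.333 CPM in treated libraries. Treated library 3 was thus near the aged controls while the others were far above. The fitted fold of Il6, 9.10 ± 2.00 (adjusted p = 0.0258), depends on the prior count because young library 1 is at 0. The call was lost without aged control library 1 or 2 or any 1 young library, the fold was 7.86 and 9.69 without treated library 2 or 3 and 9.91 without young library 3, and Il6 overlaps A230098N10Rik. Il6st, the shared chain gp130, was near young at 283, 293 and 280.5 CPM against 323, 344 and 267 CPM in treated libraries. Cntfr, the receptor of ciliary neurotrophic factor, was higher (0.66 ± 0.12, adjusted p = 0.00786).

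Downstream of these receptors, Stat3 was at 102, 104 and 106 CPM in young, 129, 129.7 and 131 CPM in aged control and 245, 305 and 165 CPM in treated libraries. The groups did not overlap, and treated RPE was above young by 1.20 ± 0.18 (adjusted p = 0.00404). Pim1, a kinase that Stat3 induces, was at 12.9, 14.5 and 12.6 CPM in young, 16.4, 17.6 and 18.4 CPM in aged control and 48.2, 57.9 and 27.1 CPM in treated libraries (1.73 ± 0.23, adjusted p = 0.00286). Socs3, the feedback inhibitor, was at 9.38, 7.78 and 5.92 CPM in young, 10.7, 10.6 and 9.26 CPM in aged control and 78.7, 127 and 13 CPM in treated libraries. Its treated library 3 was again the lowest of the treated and not far above the aged controls (3.25 ± 0.71, adjusted p = 0.024). The Socs3 call was lost without treated library 2 (2.59) or any 1 young library. For the list, the higher count was 7 with 7 libraries, and 7 and 8 without young library 1 or 2, and the lower count was 0 without young library 2. The promoters of Socs3 and Il6 are shown as the feedback gene and the ligand of this pathway, with the same source and capitals as above. Socs3 lies at chr11:117969317-117969616, minus strand. Il6 lies at chr5:30012864-30013163, plus strand.
Socs3: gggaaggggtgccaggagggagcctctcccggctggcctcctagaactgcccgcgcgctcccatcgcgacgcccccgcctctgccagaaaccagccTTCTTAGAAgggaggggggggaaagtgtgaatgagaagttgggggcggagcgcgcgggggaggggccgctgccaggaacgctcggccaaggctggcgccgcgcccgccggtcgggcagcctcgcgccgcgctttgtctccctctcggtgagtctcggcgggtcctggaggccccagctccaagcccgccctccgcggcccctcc
Il6: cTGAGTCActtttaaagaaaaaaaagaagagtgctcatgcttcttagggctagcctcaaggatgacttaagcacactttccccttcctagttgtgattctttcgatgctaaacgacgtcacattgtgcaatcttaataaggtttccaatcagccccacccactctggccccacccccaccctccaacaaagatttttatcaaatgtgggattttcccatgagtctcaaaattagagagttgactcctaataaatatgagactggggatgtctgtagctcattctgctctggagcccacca
Socs3 held a match to the activated site, TTCTTAGAA, and Il6 a match to the AP-1 site, TGAGTCA. Of the 16 members of the oncostatin M and interleukin 6 list with a sequence, 5 (31.2%) held the AP-1 site, 1 (6.25%) the activated site and 0 the response element, against 7.95%, 9.1% and 3.94% of the tested genes with a sequence. Of the 23 immediate early genes with a sequence, 1 (4.35%) held the AP-1 site.

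Immediate early genes were high in treated RPE, to a degree that differed between its libraries. Of 29 tested, 17 were higher than young, 0 were lower and 2 were near young, with a median of 1.95 against 0.20 in aged control RPE. The median by treated library was 1.17, 2.598 and 0.51, highest in library 2, the one with 0.491% haemoglobin counts, and lowest in library 3. The muscle list followed the same order over the treated libraries, with medians of 1.44, 2.01 and 0.06, and stood at 1.42 and 1.14 in aged control libraries 2 and 3. The part of muscle and blood in these changes, in the oncostatin M and interleukin 6 list and in the glucocorticoid list was not tested. Maff, a small Maf factor, was at 3.18, 4.49 and 4.6 CPM in young, 5.78, 6.57 and 6.54 CPM in aged control and 19.3, 39.8 and 13.6 CPM in treated libraries (2.56 ± 0.36, adjusted p = 0.00411). Fosl2, an AP-1 subunit, was at 17.7, 17.9 and 23.7 CPM in young, 27.3, 26.7 and 28.5 CPM in aged control and 153, 264 and 45.2 CPM in treated libraries. In both genes the treated libraries lay wholly above the young ones. Fosl2 (2.96 ± 0.55, adjusted p = 0.0146) lost its call without young library 1 or 2 and was at 2.34 without treated library 2. Egr2, a zinc finger factor that is often induced with them, was near young at 19.2, 21.8 and 20.9 CPM against 19.98, 25.6 and 20.3 CPM. The list count was 8 with 7 libraries, 8, 9 and 10 without aged control library 1, 2 or 3, and 4, 2 and 7 without young library 1, 2 or 3. With only the 6 libraries of the 2 groups in the fit it was 1.

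Acute cytokines and feedback genes of NF-kB gave 18 higher of 25 tested, 0 lower and 1 near young. Tnfaip3, the inhibitor A20, was at 14, 11.1 and 12.2 CPM in young, 16.7, 16.1 and 15.3 CPM in aged control and 34.3, 43 and 21.4 CPM in treated libraries. It stood above young in all treated libraries (1.40 ± 0.21, adjusted p = 0.00452). Nfkb2 was higher by 0.67 ± 0.12 (adjusted p = 0.00828). The count was 7 with 7 libraries, 10 without aged control library 1, and 8, 8 and 10 without young library 1, 2 or 3. Acute phase genes gave 6 higher of 14, 0 lower and 1 near young. Lcn2, lipocalin 2, was at 0.136, 0.264 and 0.0892 CPM in young, 0.758, 0.721 and 0.559 CPM in aged control and 1.05, 4.35 and 2.05 CPM in treated libraries (adjusted p = 0.0037). Orm1, orosomucoid, was at 0.159, 0.77 and 0.25 CPM in young, 3.39, 1.85 and 2.95 CPM in aged control and 4.81, 3.82 and 3.42 CPM in treated libraries, above young in all aged libraries, treated or not (adjusted p = 0.00356 for treated and 0.0182 for aged control). Cp, ceruloplasmin, was near young (0.23 ± 0.14). The list count was 9 without treated library 3 and 6 or 7 with each other library left out or with 7 libraries. Fitted folds of these low genes rest on few young reads.

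Of 20 tested targets of the glucocorticoid receptor, 9 were higher, 0 were lower and 2 were near young, with a median of 0.95 against -0.19 in aged control RPE, and 8 were higher than in the aged controls (background 2.37% of genes). Fkbp5, a chaperone that limits the receptor, was at 38.7, 53.6 and 50.5 CPM in young, 52.1, 49.5 and 55.1 CPM in aged control and 209, 248 and 115 CPM in treated libraries. The aged controls overlapped the young libraries and every treated library lay above both (2.00 ± 0.25, adjusted p = 0.00286). Klf9, a factor induced by the receptor, was at 102, 121 and 133 CPM in young, 104, 108 and 111 CPM in aged control and 231, 292 and 202 CPM in treated libraries (1.03 ± 0.14, adjusted p = 0.00286). Map3k6, a stress kinase, was at 4.93, 5.59 and 7.04 CPM in young, 4.36, 4.6 and 4.57 CPM in aged control and 21.9, 32.9 and 11 CPM in treated libraries, with library 3 again the lowest of the treated (1.90 ± 0.33, adjusted p = 0.00807). The list count was 5 with 7 libraries, 5 without young library 1 or 2, and 15 without treated library 3.

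Per1, a clock gene that glucocorticoids also induce, was at 17.1, 26.8 and 39 CPM in young, 15.9, 16.6 and 18.5 CPM in aged control and 61, 88.2 and 66.5 CPM in treated libraries. Treated libraries were above all others, and the young ones differed among themselves more than the aged (1.38 ± 0.26, adjusted p = 0.0117). Of 21 clock genes, 7 were higher than young, 3 were lower and 10 were near young. Dbp, an output factor of the clock, was lower, at 131, 108 and 119 CPM in young, 87.6, 93 and 89.9 CPM in aged control and 58.9, 52.9 and 83.9 CPM in treated libraries (-0.87 ± 0.15, adjusted p = 0.00713). Npas2, a partner of Bmal1, stayed with the aged controls, at 3.86, 5.5 and 3.42 CPM in young, 11.5, 10.6 and 12.9 CPM in aged control and 8.07, 10.2 and 11.2 CPM in treated libraries (1.20 ± 0.19, adjusted p = 0.00517). Nfil3, a repressor of clock outputs, was at 2.82, 3.19 and 4.69 CPM in young, 5.27, 5.07 and 4.69 CPM in aged control and 36.7, 60.002 and 12.5 CPM in treated libraries, all treated above all others (3.34 ± 0.51, adjusted p = 0.0065). Clock itself and Nr1d2, a repressor of the loop, were near young (0.08 ± 0.08 and -0.08 ± 0.09). Leaving out single libraries gave 3 to 7 higher: 4 without any 1 aged control library, without treated library 1 or 2 or without young library 1, and 3 without young library 2. The lower count was 6 without treated library 3. The labels give no hour of collection.

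Of 38 secreted factors linked to senescence, 25 were higher, 0 were lower and 4 were near young, with a median of 0.82 against 0.47 in aged control RPE. Many of them are cytokines, chemokines and proteases that stand in other lists here. Plaur, the urokinase receptor, was at 2.75, 5.08 and 5.19 CPM in young, 5.98, 6.43 and 6.62 CPM in aged control and 27.9, 39 and 13.9 CPM in treated libraries (2.63 ± 0.37, adjusted p = 0.00409). Hgf, hepatocyte growth factor, was at 27.2, 28.2 and 23.8 CPM in young, 40.1, 38.1 and 35.4 CPM in aged control and 52.2, 60.6 and 42.9 CPM in treated libraries (0.98 ± 0.13, adjusted p = 0.00264). Mmp14, a membrane protease, stood with the aged controls at 101, 88.6 and 88 CPM against 52, 62.4 and 48.4 CPM in young (0.77 ± 0.11, adjusted p = 0.00308). The count was 17 with 7 libraries, 16 without aged control library 1 or 2, 16 without young library 1, and 13 without young library 2 or 3.

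Of 23 genes of senescence and p53 arrest, 2 were higher, 3 were lower and 9 were near young, with a median of 0.17. Cdkn1a, the cell cycle inhibitor p21, was higher, at 2.18, 2.62 and 2.37 CPM in young, 3.28, 3.96 and 4.57 CPM in aged control and 12.9, 15.8 and 5.18 CPM in treated libraries (2.24 ± 0.35, adjusted p = 0.00517). Lmnb1, lamin B1, whose loss marks senescent cells, was higher too, at 9.06, 9.24 and 9.4 CPM in young and 14.1, 17.1 and 14.4 CPM in treated libraries (0.72 ± 0.11, adjusted p = 0.00504). Glb1, the lysosomal beta-galactosidase, was near young (-0.01 ± 0.11). Cdkn2a had too few reads to be tested, with counts of 7, 2 and 1 in young, 11, 6 and 5 in aged control and 7, 23 and 5 in treated libraries. The list's higher count was 5 with 7 libraries, 4 without treated library 2 and 6 without treated library 3. Its lower count was 1 with 7 libraries, without aged control library 1 and without young library 1, and 0 without young library 2.

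Of 25 genes of TGF-beta signalling and epithelial-mesenchymal transition, 9 were higher than young, 0 were lower and 6 were near young. Fn1, fibronectin, was at 100.1, 124 and 103 CPM in young, 206, 204 and 199 CPM in aged control and 433, 608 and 387 CPM in treated libraries. The 3 groups were fully apart, with treated RPE above young by 2.13 ± 0.16 (adjusted p = 0.000244) and above aged control by 1.23 (adjusted p = 0.0072). Ccn2, connective tissue growth factor, was at 222, 233 and 209 CPM in young, 303, 322 and 277 CPM in aged control and 745, 860.5 and 589.6 CPM in treated libraries, likewise apart (1.73 ± 0.13, adjusted p = 0.0003). Tgfb1, the ligand, was at 6.49, 8.93 and 7.35 CPM in young, 11.8, 10.6 and 12.9 CPM in aged control and 12.2, 14.5 and 14 CPM in treated libraries (0.84 ± 0.14, adjusted p = 0.00638). Its receptor gene Tgfbr1 was higher (0.62 ± 0.11, adjusted p = 0.00807), while Tgfbr2, Zeb1 and Zeb2 were near young. The count was 6 with 7 libraries, and 5 without any 1 aged control library or without young library 2.

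In the prostaglandin pathway, synthesis, breakdown and receptors changed in different directions. Of 20 genes, 3 were higher than young, 4 were lower and 6 were near young. Hpgd, the dehydrogenase that inactivates prostaglandins, was at 18.8, 19.4 and 23.9 CPM in young, 15.9, 17.2 and 15.6 CPM in aged control and 4.35, 6.58 and 6.66 CPM in treated libraries. Every treated library was far under every other (-1.82 ± 0.17 against young, adjusted p = 0.000631, and -1.47 against aged control, adjusted p = 0.00468). Pla2g4a, the phospholipase that frees arachidonic acid, was at 74.6, 84.3 and 85.2 CPM in young, 81.7, 78.2 and 76.1 CPM in aged control and 116, 148 and 119 CPM in treated libraries (0.65 ± 0.10, adjusted p = 0.00519). Ptgs2, the inducible cyclooxygenase, was at 10.4, 7.48 and 8.45 CPM in young, 9.86, 9.12 and 7.7 CPM in aged control and 101, 223 and 22.2 CPM in treated libraries, lowest again in treated library 3. It passed the test (3.72 ± 0.74, adjusted p = 0.0179) but not without any 1 young library, nor with 7 libraries (adjusted p = 0.0764), and its fold was 2.83 without treated library 2. Among receptors, Ptger4 was higher (0.73 ± 0.13, adjusted p = 0.00758) and Ptger2 lower (-0.76 ± 0.11, adjusted p = 0.00384). Ptges2, a synthase, was lower at 18.4, 14 and 12.1 CPM against 27, 26.7 and 24.1 CPM in young libraries. With 7 libraries the counts were 3 higher and 4 lower, and without treated library 3 they were 5 and 6.

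Among the 12 largest falls under young were 3 transporters, Slco1c1, Slco1b2 and Slc47a1. Slco1c1, a carrier of thyroid hormone and organic anions, was at 183, 287 and 194 CPM in young, 139.8, 199.9 and 138 CPM in aged control and 69.6, 61.6 and 57 CPM in treated libraries. Treated libraries lay below all others, and the fall was -1.82 ± 0.20 against young (adjusted p = 0.00147) and -1.34 against aged control (adjusted p = 0.0148). Its relative Slco1b2 was at 9.26, 21.2 and 15.5 CPM in young, 6.74, 9.36 and 6.9 CPM in aged control and 2.98, 1.63 and 3.11 CPM in treated libraries (-2.57 ± 0.33, adjusted p = 0.00278). Crym, a crystallin that binds thyroid hormone in the cell, was at 10.5, 10.7 and 13.1 CPM in young, 4.57, 3.84 and 6.01 CPM in aged control and 3.26, 3.07 and 1.74 CPM in treated libraries (-2.09 ± 0.25, adjusted p = 0.00191). In Slco1c1, Slco1b2 and Crym every treated library lay under every aged control, as in Slc47a1, Ggt1, Cldn11 and Col26a1 below. Slc47a1, an exporter of organic cations, was at 10.1, 9.85 and 15.1 CPM in young, 7.02, 7.33 and 8.44 CPM in aged control and 2.63, 4.55 and 2.53 CPM in treated libraries (-1.86 ± 0.25, adjusted p = 0.00278). Ggt1, which breaks down extracellular glutathione, was at 23.4, 15.5 and 13.5 CPM in young, 9.19, 9.08 and 8.22 CPM in aged control and 5.56, 3.6 and 4.64 CPM in treated libraries (-1.92 ± 0.22, adjusted p = 0.00154). Cldn11, a tight junction claudin, was at 19, 19.2 and 15.6 CPM in young, 9.29, 9.18 and 11.9 CPM in aged control and 5.98, 5.34 and 4.57 CPM in treated libraries (-1.76 ± 0.15, adjusted p = 0.000538). Only genes in which no young library overlapped a treated one could enter the largest falls, so that separation comes from the choice. Col26a1, a collagen, had the most negative fold change of the named genes, at 5.74, 8.29 and 9.61 CPM in young, 2.56, 1.89 and 4.13 CPM in aged control and 1.23, 0.901 and 1.39 CPM in treated libraries (-2.74 ± 0.32, adjusted p = 0.00178), and it overlaps 2 predicted genes. Calls for these 7 genes were kept with each of the 9 libraries left out in turn and with 7 libraries. Mme, the peptidase neprilysin, was already low in aged RPE, at 17.6, 19.3 and 21.6 CPM in young, 8.64, 7.76 and 8.74 CPM in aged control and 5.77, 7.16 and 6.47 CPM in treated libraries (-1.59 ± 0.13 against young, adjusted p = 0.000317). All treated libraries were below all aged controls.

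RPE genes of the visual cycle stood under young in treated library 2 and 3 and less so in library 1. Of 14 tested, 6 were lower than young, 1 was higher and 1 was near young, with a median of -0.42 against -0.24 in aged control RPE. The median by treated library was -0.13, -0.64 and -0.65. Over the same libraries the medians were 0.05, 3.72 and 1.22 for stratified epithelium genes and -0.49, 3.43 and 0.68 for haemoglobin and erythroid genes. Rod genes were at 0.01, 0.898 and 1.34. These marker lists were higher where the visual cycle list was lower. The skeletal muscle list (1.44, 2.01 and 0.06) and the Muller glia and astrocyte list (-0.27, -0.46 and -0.30) did not follow that pattern. The part of other cells was not tested. Rdh10, a retinol dehydrogenase, was at 1257, 1276 and 1309 CPM in young, 966, 1141 and 931 CPM in aged control and 1007, 626 and 711 CPM in treated libraries. It was lower than young (-0.71 ± 0.16, adjusted p = 0.018), though not without young library 1 or 2. Rpe65 itself, given above, was below young in all treated and all aged control libraries (2328, 2431 and 2075 CPM) without passing the test (-0.38 ± 0.13, adjusted p = 0.0719). Ttr, the retinol carrier transthyretin, was at 3549.9, 2702 and 2745 CPM in young and 2274, 1294 and 1539 CPM in treated libraries (-0.82 ± 0.20, adjusted p = 0.0227), and its call was lost without treated library 2 or young library 1 or 2. The lower count was 0 with 7 libraries, 3 without any 1 aged control library, 10 without treated library 1, 2 without treated library 2, 3 without treated library 3, and 0, 1 and 3 without young library 1, 2 or 3. With only the 2 groups in the fit it was 0. The member that was higher, Rbp4, kept its call in the fit without treated library 3 and in no other fit with 1 library left out.

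Of 16 genes of RPE transport, 4 were lower than young, 1 was higher and 3 were near young. Kcnj13, the potassium channel Kir7.1, was at 738, 718 and 660.2 CPM in young, 580.0, 633 and 513 CPM in aged control and 546, 404 and 473 CPM in treated libraries (-0.57 ± 0.12, adjusted p = 0.0154), and its call was lost without young library 1 or 2. Best1 was the member that was higher (0.81 ± 0.18, adjusted p = 0.0181), a call lost without young library 1 or 2 and with 7 libraries. Aqp1, a water channel, was near young (0.01 ± 0.09). The lower count was 1 with 7 libraries, 2 without any 1 aged control library, 7 without treated library 1, and 0, 2 and 2 without young library 1, 2 or 3. With only the 2 groups in the fit it was 0. Without treated library 3, 3 were higher. Among 9 lineage factors Tfec, a relative of Mitf, was higher (1.08 ± 0.21, adjusted p = 0.0107), 0 were lower and 0 were near young, and with 7 libraries its adjusted p was 0.0523.

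Of 13 genes for taking up outer segments, 5 were higher than young, 1 was lower and 6 were near young. Mfge8, the bridge between outer segments and integrin, was at 61.7, 82.4 and 66.3 CPM in young, 190.2, 168 and 177 CPM in aged control and 304, 174 and 225 CPM in treated libraries. It stayed as high as in the aged controls or higher (1.74 ± 0.19 against young, adjusted p = 0.00134). Gas6, the ligand of the receptor Mertk, was at 188, 161 and 161 CPM in young, 204, 196 and 198 CPM in aged control and 228, 335 and 293 CPM in treated libraries (0.75 ± 0.13, adjusted p = 0.00678). Cd36, a scavenger receptor, was higher in every treated library (0.63 ± 0.10, adjusted p = 0.00462). Macrophages also express several of these genes; the summed level of the macrophage list was 1585 to 2618 CPM in young, 3907 to 4330.5 CPM in aged control and 3458 to 4503 CPM in treated libraries, and its part was not tested. The higher count was 3 without young library 1, 2 or 3.

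Of 20 genes of melanin and melanosomes, 10 were lower than young, 2 were higher and 5 were near young, with a median of -0.51 against -0.26 in aged control RPE, where 2 were called lower. Rab38, a GTPase that carries enzymes to melanosomes, was at 141, 149.6 and 139.5 CPM in young, 126, 126 and 132 CPM in aged control and 79.2, 66.4 and 62.5 CPM in treated libraries. Treated libraries were far below both other groups (-1.05 ± 0.10 against young, adjusted p = 0.000604, and -0.88 against aged control, adjusted p = 0.00409). Slc45a2, a melanosomal transporter, was at 188, 188 and 185 CPM in young, 129.8, 129.7 and 124 CPM in aged control and 128, 118 and 113 CPM in treated libraries, as low as in the aged controls or lower (-0.65 ± 0.08, adjusted p = 0.00181). Dct, dopachrome tautomerase, was at 2058, 1831 and 1647 CPM in young, 1303, 1361 and 1284 CPM in aged control and 1171, 926 and 996 CPM in treated libraries (-0.84 ± 0.12, adjusted p = 0.00323). Myo5a and Oca2 were near young (0.16 ± 0.10 and -0.05 ± 0.14). Choroidal melanocytes share pigment genes with the RPE, and 5 of 9 genes of their list were lower and 0 higher. Ednrb, the endothelin receptor of melanocytes, was at 404, 412 and 389.7 CPM in young, 265, 289.8 and 267 CPM in aged control and 268, 242 and 242 CPM in treated libraries (-0.68 ± 0.08, adjusted p = 0.00197). The part of melanocytes in the fall of pigment genes was not tested. With 7 libraries 7 melanosome genes and 3 melanocyte genes were lower, and without any 1 aged control library, treated library 2 or young library 1 or 2 the melanocyte count was 3.

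Of 19 genes of choroidal endothelium, 7 were lower than young, 1 was higher and 11 were near young, 2 of which were also called. Thbd, thrombomodulin, was at 79.1, 86.7 and 85.6 CPM in young, 44.1, 40.6 and 48.2 CPM in aged control and 50.3, 56.4 and 42.9 CPM in treated libraries, and stayed with the aged controls (-0.75 ± 0.11, adjusted p = 0.00378). Tie1, a vessel receptor, was at 52.2, 57.9 and 53.9 CPM in young and 39, 40.9 and 43.7 CPM in treated libraries (-0.41 ± 0.08, adjusted p = 0.0107), and lost its call without young library 2. Flt1 and Emcn were near young. The lower count was 4 with 7 libraries, 3, 3 and 4 without aged control library 1, 2 or 3, 4 without treated library 1 or 2, and 4, 3 and 3 without young library 1, 2 or 3. With only the 2 groups in the fit it was 2.

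**Figure D4:**
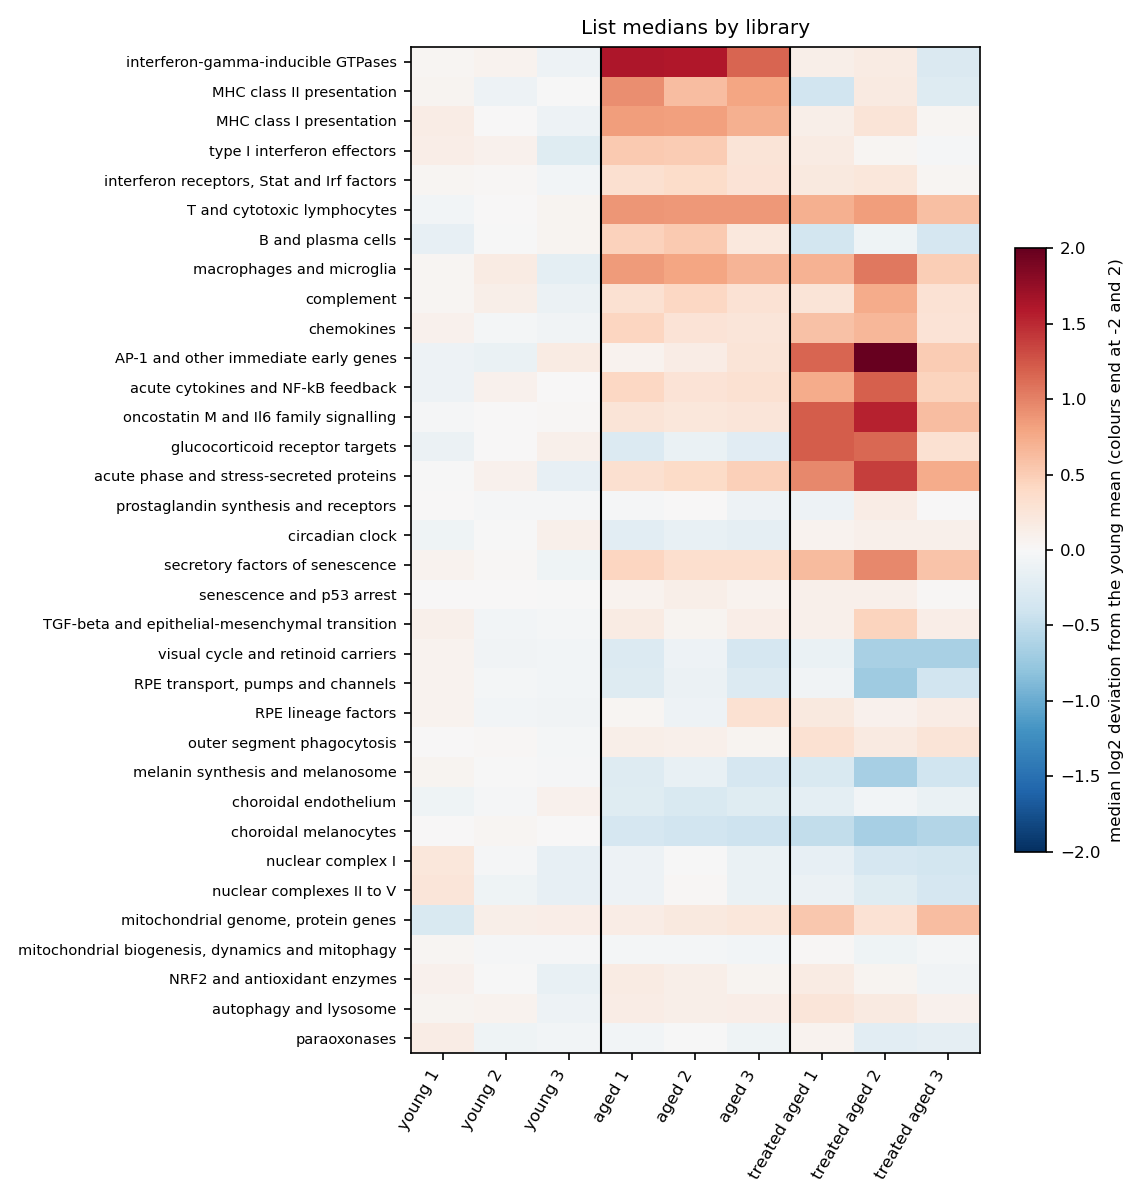
Colours give the median log2 deviation of list members from the young mean (columns are the 9 libraries, rows 34 gene lists, values log2 of CPM plus 0.5 over all tested members). GTPase medians in the treated libraries lie between -0.29 and 0.16, and immediate early medians at 1.17, 2.598 and 0.51.

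Of 36 nuclear genes of complex I, 0 were higher, 6 were lower and 18 were near young, with a median of -0.31. Ndufv3, a subunit, was lower, at 45.5, 35.4 and 34.8 CPM in young, 34.4, 35.2 and 32.7 CPM in aged control and 28.1, 22.5 and 24 CPM in treated libraries (-0.63 ± 0.12, adjusted p = 0.0108). The lower count was 1 with 7 libraries and 1 without any 1 aged control library, without treated library 2 or 3, or without young library 1 or 2. With only the 2 groups in the fit it was 0. Of 35 genes of complexes II to V, 0 were higher, 1 was lower and 20 were near young. Of 13 protein genes of the mitochondrial genome, 5 were higher, 0 were lower and 4 were near young. ND5 was at 80.7, 112 and 108 CPM in young, 129.9, 117 and 121 CPM in aged control and 164, 131 and 167 CPM in treated libraries (0.61 ± 0.14, adjusted p = 0.0163). Young library 1, the one low in mitochondrial ribosomal RNA, was the lowest, and ND5 overlaps ND6. COX1 was near young at 4638, 4607 and 4324 CPM against 4528, 4989.7 and 4404 CPM. The higher count for the mitochondrial genome was 6 with 7 libraries, 2 without any 1 aged control library or treated library 1, and 3 without treated library 3 or young library 1 or 2. Of 28 genes of mitochondrial biogenesis, dynamics and mitophagy, 2 were higher, 0 were lower and 22 were near young, and without treated library 3 there were 7 higher and 2 lower. Ppargc1a, the coactivator PGC-1alpha, was at 131, 116 and 142 CPM in young, 119, 116 and 116 CPM in aged control and 137, 123 and 135 CPM in treated libraries, with a difference of 0.02 ± 0.09 that lay near young.

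Of 31 genes of the antioxidant response under NRF2, 8 were higher than young, 0 were lower and 16 were near young. Slc7a11, the cystine importer, was at 19.5, 15.2 and 11.9 CPM in young, 31.4, 24.8 and 31.7 CPM in aged control and 133, 81.8 and 45.9 CPM in treated libraries (2.49 ± 0.36, adjusted p = 0.00536). Hmox1, haem oxygenase 1, was at 12.9, 12.1 and 9.59 CPM in young, 16.3, 14.6 and 15.1 CPM in aged control and 25.1, 24.2 and 15.8 CPM in treated libraries (0.91 ± 0.18, adjusted p = 0.0102). Both lay wholly above young. Prdx1 and Ftl1 were near young (-0.04 ± 0.10 and 0.17 ± 0.11). The higher count was 6 with 7 libraries and 5 without any 1 of the aged control libraries, treated library 1 or 2, or young library 2 or 3. Of 30 genes of autophagy and lysosome, 6 were higher, 0 were lower and 23 were near young. With 7 libraries 3 were higher, with only the 2 groups 2, and without any 1 aged control or young library or treated library 1 there were 4. Ulk1, the kinase that starts autophagy, was higher, at 30.1, 30.5 and 32.3 CPM in young and 46.5, 44.9 and 42 CPM in treated libraries (0.52 ± 0.09, adjusted p = 0.00795). Lamp1 and Lamp2 were near young (0.19 ± 0.10 and 0.16 ± 0.10). Of the 3 paraoxonases, a family studied as a target of vutiglabridin, 0 were called and 2 were near young. Pon2 was at 71.8, 74.1 and 69.4 CPM in young, 69.4, 71.1 and 67.4 CPM in aged control and 75.3, 67.1 and 63.4 CPM in treated libraries, a difference from young of -0.07 ± 0.08 with an interval from -0.25 to 0.12. Pon3 differed by 0.09 ± 0.14, from -0.22 to 0.40.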

How the data were processed

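RNA-seq of mouse RPE was measured in 9 libraries. Per the submitters' processing notes, reads were handled with Bowtie2 2.3.4.1, featureCounts 1.6.0 and DESeq2 on GRCm38; which values each made, and whether counting used the strand, is not given in the sources used here. The deposited raw counts per gene, as the authors made them, were used, and coordinates in that table were not printed. Groups follow the labels. Genes were kept with edgeR's filterByExpr, scaled by TMM and tested with edgeR 4.0.16 (glmQLFit, robust, R 4.3.3) over all 9 libraries without covariates. Comparisons with aged controls share libraries with the main one. CPM are TMM-scaled. The method was tested on simulated data. Alternatives were other size factors, filters, thresholds and fits, DESeq2 1.42.0, limma 3.58.1 (voom), fits without single libraries, and fits without genes that overlap another or mark other cells. A count of age-called genes with libraries left out was added after seeing the data. The members and lists were chosen with earlier results of these data known. Genes named are the 12 largest rises and falls among called genes that average 1 CPM or more and whose groups do not overlap, up to 5 called members of smallest p and up to 3 near-young members of highest CPM per list, and genes of prior interest; not all are printed, and a few are not reported here. Promoters come from the RefSeq table of GRCm38.p6. Depth was similar in all libraries. How counting error compares with the spread between libraries was not tested, and genes below about 1 CPM rest on few reads.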

Additional observations from a re-analysis of the deposited data

How the results depend on the processing

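Against 4222 genes called with all 9 libraries (2278 higher, 1944 lower, 9050 near young), the 7 libraries left without treated library 2 and young library 1 gave 1794, 1036 and 758. Restricting the table to genes that overlap no other gene gave 2171, 1188 and 983, with 4295 near young, as fewer genes were tested. A fit on only the 2 groups gave 1041, 667 and 374. At an adjusted p under 0.01 the counts were 893, 578 and 315, and at 0.1 they were 6911, 3573 and 3338. A bound of 2-fold put 15980 genes near young. Leaving out single libraries gave 1775 to 6086 called, 1007 to 3386 higher, 715 to 2700 lower and 7620 to 9455 near young. Other size factors, filters, DESeq2 (5901 called) and limma-voom (3831) kept these counts within 1.5 times. No fold of the 158 named calls changed sign, and the sign of the other calls was not checked. Some folds near 0 did: with 7 libraries Gbp4 was at -0.24 and Irgm2 at -0.06. Same-numbered libraries deviated together little (correlations of -0.079 to 0.148). The labels do not say whether the numbers pair the samples, and low correlations over all genes cannot decide it. With the replicate block, 3587 genes were called. Of 158 named calls, 104 were kept with 7 libraries, 92 with only the 2 groups, 147 with the replicate block, 152 with RLE size factors and 158 with DESeq2. Age and treatment cannot be told apart between these groups, and genes under about 1 CPM rest on few reads.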
